A study of Rattus norvegicus with 16 samples.

Results

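The Egr family consists of 4 zinc finger transcription factors, Egr1, Egr2, Egr3 and Egr4, and its transcripts were followed in the nucleus basalis of Meynert of stressed and control rats. This basal forebrain nucleus holds cholinergic neurons that project to the cortex. The 4 genes were taken by their Ensembl identifiers out of 32883 gene rows, and all 4 lay on the chromosomes given for them on Rnor_6.0. Egr1 is ENSRNOG00000019422 (chromosome 18, 27657628 to 27661429, plus strand), Egr2 is ENSRNOG00000000640 (chromosome 20, 22454463 to 22459025, minus strand), Egr3 is ENSRNOG00000017828 (chromosome 15, 51756736 to 51760722, plus strand) and Egr4 is ENSRNOG00000015719 (chromosome 4, 117293620 to 117296082, minus strand). None of them overlapped another annotated gene, with 0 overlapping genes each. All 4 passed the filter on low counts that left 14241 genes.

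The study is titled for sustained attention and the cholinergic attention system under stress. It used Long Evans rats with the genotype ChAT::Cre, a line carrying Cre recombinase in cells that make choline acetyltransferase, at an age given only as at least 70 days. The groups were stressed females, control females, stressed males and control males, all of this strain, genotype and age, with 4 libraries each. The series text speaks of 6 replicates, and the 4 libraries of each group are those analysed here. It abbreviates the stress as VS without spelling it out, and the number and timing of sessions and the interval before tissue was taken are not given in the sources used here. Nothing in them ties a library to an animal of its own, and every p-value below therefore rests on library-to-library spread that may be technical.

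Egr genes are immediate early genes: they are transcribed within minutes of synaptic or hormonal input without new protein synthesis. In neurons, calcium and the ERK kinase cascade activate serum response factor with its ETS-domain partners, which bind CArG boxes in Egr promoters, and CREB, which binds cyclic AMP response elements. The Egr proteins then bind GC-rich sites in later genes through 3 zinc fingers, and the corepressors Nab1 and Nab2 limit the activity of Egr1, Egr2 and Egr3.

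The promoters of Egr1, Egr2 and Egr4 are shown so that the letters of these known kinds of site can be compared between members. Each is the run of 250 bases before the RefSeq gene start on GRCr8, a later build than that of the counts. Capitals mark CArG boxes and the core CGTCA of the cyclic AMP response element. The Egr1 window is chr18:26736828-26737077 on the plus strand, the Egr2 window chr20:21054442-21054691 on the minus strand and the Egr4 window chr4:119607818-119608067 on the minus strand, each written 5′ to 3′ in the direction of transcription.
Egr1: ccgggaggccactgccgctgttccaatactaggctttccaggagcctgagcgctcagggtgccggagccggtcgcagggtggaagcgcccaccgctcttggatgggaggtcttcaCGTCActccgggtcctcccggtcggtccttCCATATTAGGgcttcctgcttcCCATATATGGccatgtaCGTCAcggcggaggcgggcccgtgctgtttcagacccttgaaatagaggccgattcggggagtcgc
Egr2: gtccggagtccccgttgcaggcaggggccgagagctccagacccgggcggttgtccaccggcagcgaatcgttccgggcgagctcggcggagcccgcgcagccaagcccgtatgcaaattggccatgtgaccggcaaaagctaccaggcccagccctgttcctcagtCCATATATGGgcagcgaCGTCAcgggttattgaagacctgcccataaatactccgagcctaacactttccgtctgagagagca
Egr4: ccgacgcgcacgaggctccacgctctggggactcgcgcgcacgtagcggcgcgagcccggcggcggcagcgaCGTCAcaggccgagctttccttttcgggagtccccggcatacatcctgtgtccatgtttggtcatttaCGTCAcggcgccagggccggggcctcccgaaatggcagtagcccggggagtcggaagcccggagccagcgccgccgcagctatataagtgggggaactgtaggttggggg

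Egr1 held 2 CArG boxes, CCATATTAGG and CCATATATGG, and Egr2 held 1, CCATATATGG, while the Egr4 window held 0. The box CCATATATGG lay at the same place in Egr1 and Egr2, from position -83 to position -74 counted back from the gene start, and in both a CGTCA followed at -66 to -62. Egr1 held a second CGTCA at -135 to -131, and Egr4 held 2, at -178 to -174 and -110 to -106. Of 33469 rat promoter windows of the same length, 1.497% held a CArG box, 0.0209% held at least 2, and 18.2% held CGTCA on either strand. A CArG box with CGTCA beginning 7 bases on, read on either strand, stood in 4 windows, those of Egr1, Egr2, Dusp5, which encodes an ERK phosphatase, and LOC134485250. This spacing was chosen after the Egr1 and Egr2 windows were seen, so both were bound to be among the 4. The full element TGACGTCA, found in 1.59% of windows, and the Egr binding site GCGNGGGCG, found in 4.29% on either strand, had 0 matches in the 3 windows. The Egr1, Egr2 and Egr4 windows had 63.2%, 62.0% and 68.0% G and C, against a median of 51.2% over all windows. These matches describe letters in short windows and are not measured binding.

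Egr1 was the most abundant member and Egr2 and Egr4 the least. Levels are TMM-scaled CPM, a gene's count relative to the library total, and across genes they are compared only as CPM per kb of exon. Over the 16 libraries Egr1 ran from 7.50 to 18.5 CPM per kb with a median of 14.9, and Egr3 from 4.12 to 10.4 with a median of 7.24. Egr2 ran from 0.182 to 0.738 CPM per kb with a median of 0.394, and Egr4 from 0.209 to 0.619 with a median of 0.378. Egr1 thus stood above 90.9% of the tested genes in mean CPM per kb, Egr3 above 80.4%, Egr2 above 17.5% and Egr4 above 16.5%. Egr1 was above Egr3 in 15 of 16 libraries, and only male control 18 had Egr3 on top. Egr3 was above both rarer members in 16 of 16. Egr2 and Egr4 had no fixed order, with Egr2 higher in 9 libraries and Egr4 in 7. Their ranges overlapped, and the difference between them was not tested.

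The counts behind these levels set how finely each gene can be read. Egr1 had 998 to 2848 counts per library and Egr3 447 to 987, so counting error was at most 3.17% and 4.73% of a value. Egr2 had 25 to 110 counts and Egr4 15 to 62, so counting error alone reached 20.0% and 25.8%. The lowest value, 15 counts of Egr4 in female stress 2, has an exact Poisson 95% interval of 8.40 to 24.7 counts, for counting error only.

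Some facts of the libraries touch the results. Totals were 22.7 to 38.2 M counts in 13 HTSeq libraries and 63.1 to 73.8 M in 3 featureCounts libraries, namely male stress 11, female control 10 and male control 20. Mitochondrial genes took 64.2% to 82.5% of the counts. In female control 7 and male stress 14, 40.8% and 38.8% of reads were not aligned, against 13.2% to 15.4% in the other HTSeq libraries. The files pair no identifier with a name, so markers of cholinergic neurons or of other cells, and other genes of the Egr pathway, were not analysed here, and the labelled nucleus was not checked against its markers. In tissue RNA, fewer cells of a type and less RNA per cell cannot be told apart.

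**Figure D1:**
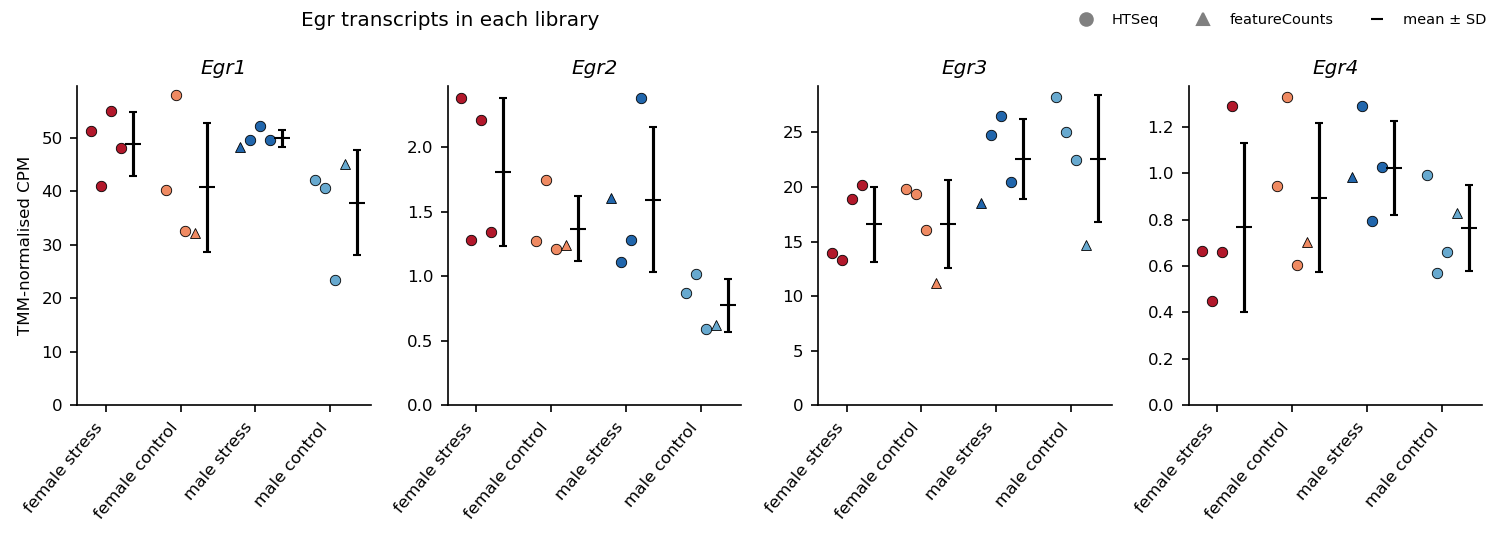
Level of each Egr gene in every library, in TMM-normalised CPM on axes that start at 0, for stressed females, control females, stressed males and control males; bars are mean ± SD of 4 libraries and triangles are featureCounts libraries. Stressed males lie above control males in Egr1 and Egr2, as in 2.96% of all tested genes, and the triangles are the lowest points of their groups in Egr3.

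Stress was compared with control for each gene, in females, in males and averaged over the sexes. Of the 4 genes, 0 passed edgeR's quasi-likelihood test at an adjusted p of 0.05 in females, where 0.0632% of all tested genes were called, 0 in males, where 0.119% were, and 0 on average over the sexes, where 0.337% were. At an unadjusted p under 0.05, 0 of the 4 passed in females, against 6.48% of all genes. Egr1 and Egr2, 2 of the 4, did so in males, against 7.70% of all genes, and on average, against 10.2%. The median log2 fold change of the 4 genes was 0.14 in females, 0.41 in males and 0.22 on average. Single genes ran from -0.19 (Egr4) to 0.41 (Egr2) in females and from 0.00 (Egr3) to 1.05 (Egr2) in males. Over all tested genes the medians were 0.01, 0.00 and 0.01. TMM scaling holds such a median near 0, so setting the 4 genes against it tests nothing about the family.

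Egr1, the member best known as a marker of neuronal activity and synaptic plasticity, had 51.3, 41.1, 55.1 and 48.1 CPM in stressed females, against 40.3, 57.9, 32.6 and 32.2 CPM in control females. The groups overlapped, because female control 7 was the highest of all 16 libraries while the other controls lay below every stressed female; 1.72% of all tested genes had every stressed female above every control female. In stressed males Egr1 had 48.2, 49.5, 52.2 and 49.6 CPM, against 42.1, 40.7, 23.5 and 45.2 CPM in control males. Every stressed male lay above every control male, as 2.96% of all tested genes did. The stressed males were also the most even group, at 49.9 ± 1.65 CPM against 37.9 ± 9.77 CPM in control males; stressed females averaged 48.9 ± 5.94 CPM against 40.8 ± 12.0 CPM for control females (SD, n = 4).

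The log2 fold change of Egr1 with stress was 0.27 in females (SE 0.18, 95% interval -0.11 to 0.64) and 0.40 in males (SE 0.18, 95% interval 0.02 to 0.77). By edgeR the adjusted p was 0.859 in females and 0.604 in males. Averaged over the sexes it was 0.33 (SE 0.13, unadjusted p = 0.0164, edgeR adjusted p = 0.351), a 1.26-fold difference with a 95% interval of 1.05 to 1.51. It passed in 1 setting, without the filter on low counts (log2 fold change 0.32, edgeR adjusted p = 0.0373). In that setting 207 of all genes were called on average over the sexes, against 48 with the filter. Male control 18 carried much of the male value: without it the log2 fold change was 0.22. That library also had the highest share of reads that HTSeq assigned to no feature among the male HTSeq libraries, 22.03%. The other HTSeq male controls had 16.6% and 19.0%, and the HTSeq stressed males 13.1% to 14.0%. The part of this share in the result was not tested. In females the log2 fold change was 0.17 without female control 8 and 0.16 without female control 10. Without female control 7 it was 0.48 and the average 0.44 (edgeR adjusted p = 0.143).

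Egr2, also known as Krox20 and required for myelination by Schwann cells and for hindbrain patterning, had the largest fold of the 4. It had 2.39, 1.28, 2.22 and 1.34 CPM in stressed females, against 1.27, 1.74, 1.21 and 1.24 CPM in control females. The stressed females split into a pair above every control and a pair within their range. In stressed males it had 1.61, 1.11, 1.28 and 2.38 CPM, against 0.872, 1.02, 0.588 and 0.622 CPM in control males. Every stressed male again lay above every control male, by a margin that was small between male stress 12 and male control 17.

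The log2 fold change of Egr2 was 0.41 in females (SE 0.29, 95% interval -0.19 to 1.01) and 1.05 in males (SE 0.30, 95% interval 0.42 to 1.67), which is 2.06-fold in males. Without female stress 1, in which HTSeq assigned 31.2% of reads to no feature, the female value was 0.25. Neither passed, with edgeR adjusted p-values of 0.861 in females and 0.314 in males. On average over the sexes it was 0.73 (SE 0.21, unadjusted p = 0.00182, edgeR adjusted p = 0.188), or 1.66-fold with a 95% interval of 1.23 to 2.23. By unadjusted p Egr2 ranked 138 of 14241 genes on average and 86 in males. Male stress 14, with 38.8% of its reads not aligned, was the highest stressed male; without it the male log2 fold change was 0.81 and the average 0.61 (edgeR adjusted p = 0.320). Without that library, female control 7 and the 3 featureCounts libraries together the male value was 0.54 and the average also 0.54. The part of the unaligned reads in the result was not tested.

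Egr3 is an Egr1 relative that also follows neuronal activity and is required for muscle spindles. Over all libraries it had the same mean level in stressed and control rats of each sex. It had 14.0, 13.3, 18.9 and 20.2 CPM in stressed females, against 19.9, 19.4, 16.1 and 11.2 CPM in control females. In males it had 18.5, 24.7, 26.5 and 20.5 CPM in the stressed group, against 28.3, 25.01, 22.5 and 14.7 CPM in controls. The groups overlapped in both sexes. Stressed females averaged 16.6 ± 3.44 CPM against 16.6 ± 4.01 CPM for control females, and stressed males 22.6 ± 3.69 CPM against 22.6 ± 5.79 CPM for control males (SD, n = 4). Each group but stressed females held a featureCounts library, the lowest of its group. With HTSeq libraries alone the means were 16.6 CPM in stressed and 18.4 CPM in control females. In males they were 23.9 CPM in the stressed group and 25.2 CPM in controls. The average log2 fold change was 0.00 (SE 0.14, edgeR adjusted p = 0.996), with a 95% interval of 0.820-fold to 1.23-fold, so a larger average change in either direction lies outside that interval.

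Egr4, also an activity-induced member, had 0.664, 0.448, 0.662 and 1.29 CPM in stressed females, against 0.944, 1.33, 0.606 and 0.701 CPM in control females. In males it had 0.984, 1.29, 0.796 and 1.03 CPM in the stressed group, against 0.992, 0.572, 0.659 and 0.830 CPM in controls. All these groups overlapped. The log2 fold change was -0.19 in females (SE 0.36) and 0.42 in males (SE 0.35), with edgeR adjusted p-values of 0.960 and 0.832. The average, 0.11, had a 95% interval of 0.757-fold to 1.54-fold, the widest of the 4 genes on the log2 scale, and differences within it were not detectable with this spread between libraries.

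**Figure D2:**
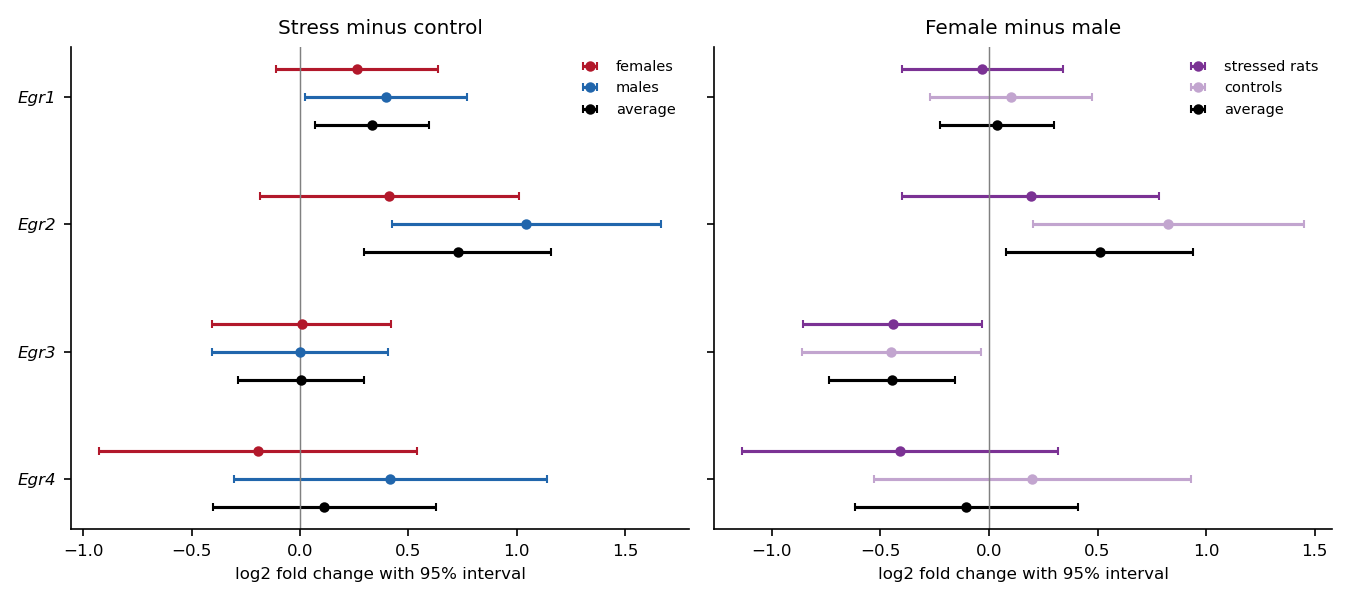
Log2 fold change of each Egr gene with its 95% interval, for stress minus control in females, males and on average over the sexes (left) and for females minus males in stressed rats, controls and on average (right). In the left part only the Egr1 and Egr2 intervals for males and for the average lie above 0, and Egr3 sits at 0.00; in the right part all Egr3 intervals lie below 0.

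**Figure D3:**
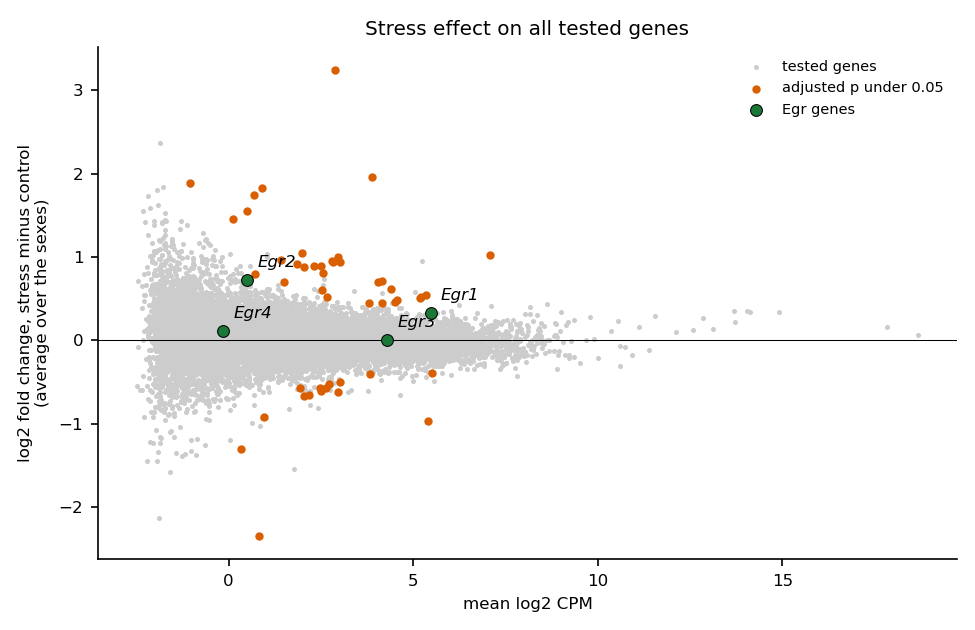
Average stress effect of all 14241 tested genes as log2 fold change against mean log2 CPM, with the 48 genes at an adjusted p under 0.05 in orange and the 4 Egr genes in green. Egr2, at 0.73, lies at the upper edge of genes of like level, and the other members lie inside the cloud.

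**Figure D4:**
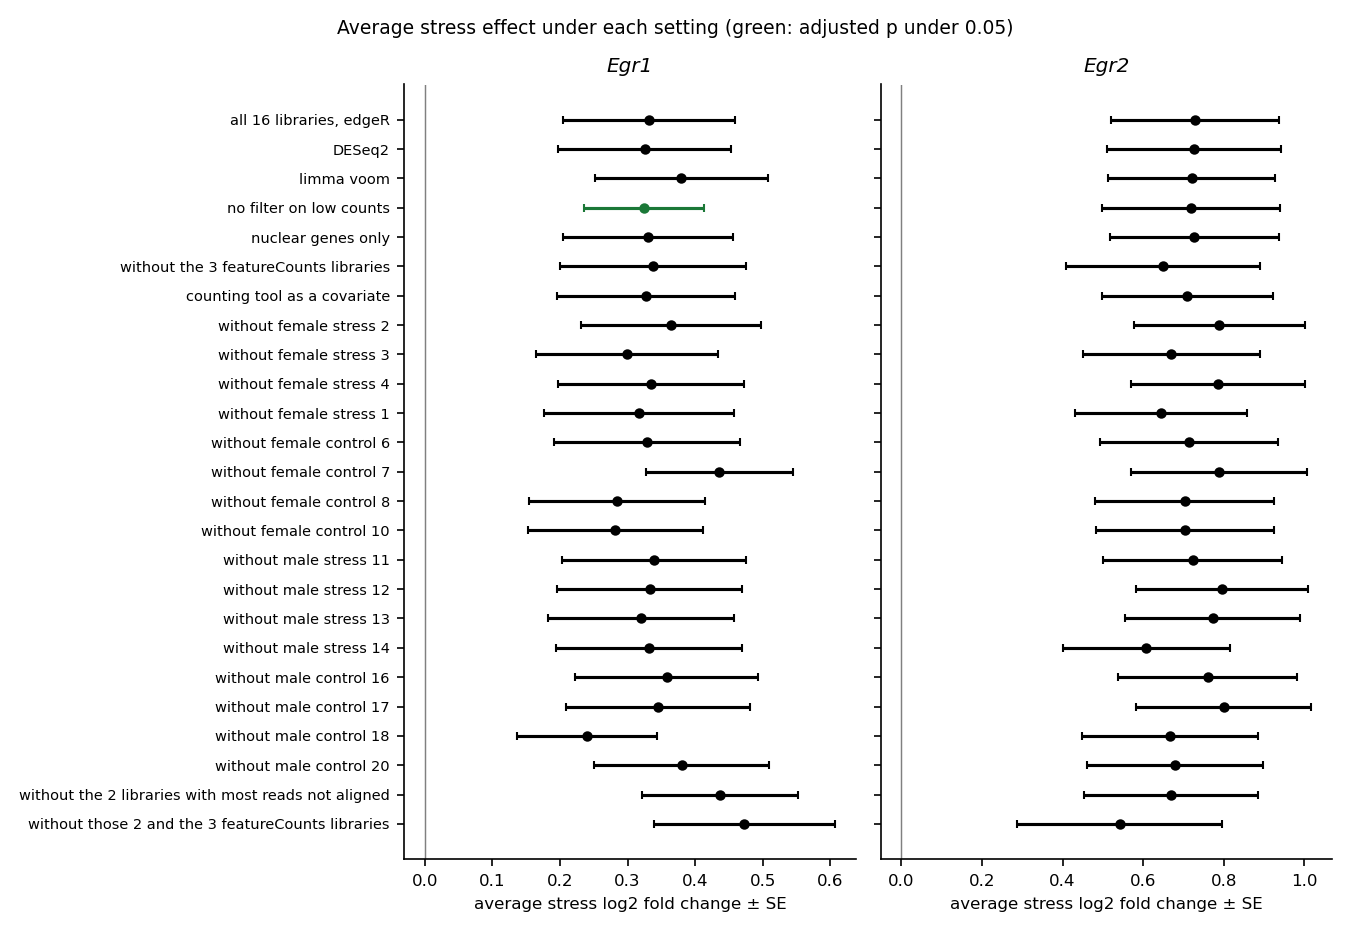
Average stress log2 fold change ± SE of Egr1 and Egr2 under each setting of the fit, with all 16 libraries at the top. All values are above 0, and among these settings Egr1 passed only without the filter on low counts, at an edgeR adjusted p of 0.0373, and Egr2 under none. Without that filter 207 of all genes were called, against 48 with it.

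The difference of the stress effect between the sexes was called for 0 of the 4 genes, and for 0% of all tested genes, by edgeR. Female minus male, the log2 difference was -0.13 for Egr1 (SE 0.25), -0.63 for Egr2 (SE 0.42), 0.01 for Egr3 (SE 0.28) and -0.61 for Egr4 (SE 0.50), and edgeR gave an adjusted p of 1.00 for each. At an unadjusted p under 0.05, 0 of the 4 passed, against 4.01% of all genes. The 95% interval of the Egr2 difference, -1.49 to 0.23, holds 0 and also differences larger than the male effect itself. It was -0.40 without male stress 14, -0.27 without that library and female control 7, and -0.0059 without both and the 3 featureCounts libraries. A p that misses the threshold does not show that the sexes respond alike.

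Females were then set against males within each condition. Of the 4 genes, 0 were called by edgeR in stressed rats, where 0.0913% of all genes were, and 0 in controls, where 0.112% were. At an unadjusted p under 0.05, Egr3 alone passed in stressed rats, against 5.68% of all genes, and Egr2 and Egr3 in controls, against 6.19%. Egr2 was higher in control females than in control males in every library, at 1.37 ± 0.252 against 0.775 ± 0.205 CPM (SD, n = 4); 1.69% of all genes had every female control above every male control. Its log2 fold change there was 0.83 (SE 0.30, unadjusted p = 0.0115, edgeR adjusted p = 0.698). In stressed rats it was 0.19 (SE 0.29, edgeR adjusted p = 0.968), ranging from 0.036 without female stress 1 to 0.43 without male stress 14, at 1.81 ± 0.574 CPM in females and 1.59 ± 0.564 CPM in males. The low level in control males thus enters both the sex comparison in controls and the stress comparison in males, which share those 4 libraries.

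Egr3 had lower values in females than in males in both conditions. The log2 fold change was -0.44 in stressed rats (SE 0.20, unadjusted p = 0.0367, edgeR adjusted p = 0.870) and -0.45 in controls (SE 0.20, unadjusted p = 0.0340, edgeR adjusted p = 0.770). The value in controls was -0.29 without female control 10. Averaged over both conditions, a contrast added after those values were seen, it was -0.45 (SE 0.14, unadjusted p = 0.00451, edgeR adjusted p = 0.395), or 0.734-fold with a 95% interval of 0.600 to 0.898. In that contrast 0.140% of all genes were called, and 7.84% had an unadjusted p under 0.05, as Egr2 and Egr3 did. Egr1, Egr2 and Egr4 had log2 fold changes of 0.04, 0.51 and -0.10.

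The counting tool moved with Egr3. All 3 featureCounts libraries had the lowest Egr3 of their group, at 11.2 CPM in female control 10, 18.5 CPM in male stress 11 and 14.7 CPM in male control 20. In a fit with the tool as a covariate, featureCounts minus HTSeq came to a log2 fold change of -0.62 for Egr3 (SE 0.13, edgeR adjusted p = 0.0521). For Egr1, Egr2 and Egr4 it was -0.03, -0.16 and -0.11, and 0.162% of all genes were called for the tool. With HTSeq alone, Egr3 spanned 13.3 to 20.2 CPM over 7 libraries from females and 20.5 to 28.3 CPM over 6 from males, with no overlap. Of all tested genes, 0.176% had every female HTSeq library below every male one. With the tool as a covariate the average sex difference of Egr3 was -0.52 (edgeR adjusted p = 0.0173), with 24 of all genes called. Without the 3 featureCounts libraries it was -0.49 (edgeR adjusted p = 0.106), with 17 called. With no filter on low counts it was -0.44 (edgeR adjusted p = 0.00120), with 146 called, against 20 with the filter. The call thus depends on how the 3 featureCounts libraries are handled and on the filter. The tool cannot be told apart from other traits of those 3 libraries. Egr1, Egr2 and Egr4 were not called for sex in these fits. The average Egr3 stress effect was -0.05 with the tool as a covariate. Without the 3 featureCounts libraries it was -0.11, with -0.15 in females and -0.077 in males, and none of these was called.

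Whether the members move together from library to library was examined after group means were removed, with permutations within groups and 6 pairs of genes. Egr1 and Egr2 had a Pearson r of 0.48 (permutation p = 0.0316, adjusted p = 0.190 over 6 pairs) and a Spearman rho of 0.48 (permutation p = 0.0381, adjusted p = 0.228) over 16 libraries. Without the libraries farthest from the median of Egr1, male control 18 and female control 7, r was 0.34. In the 13 HTSeq libraries r was 0.61 (permutation p = 0.00934, adjusted p = 0.0560). Egr1 and Egr4 had r = 0.50 (permutation p = 0.0718, adjusted p = 0.216) and rho = 0.45 (permutation p = 0.133, adjusted p = 0.278), and r = 0.42 without the same libraries. Egr3 and Egr4 had r = 0.41 (permutation p = 0.161, adjusted p = 0.322) and rho = 0.45 (permutation p = 0.139, adjusted p = 0.278), and 0.64 in the HTSeq libraries (permutation p = 0.0509, adjusted p = 0.121). Egr1 and Egr3 had r = 0.26 over 16 libraries (permutation p = 0.424, adjusted p = 0.636) and 0.52 in the HTSeq libraries (permutation p = 0.0604, adjusted p = 0.121). The others were 0.11 for Egr2 with Egr3 and 0.04 for Egr2 with Egr4. None of the 6 pairs passed after adjustment in either set of libraries, with 0 under an adjusted p of 0.05.

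**Figure D5:**
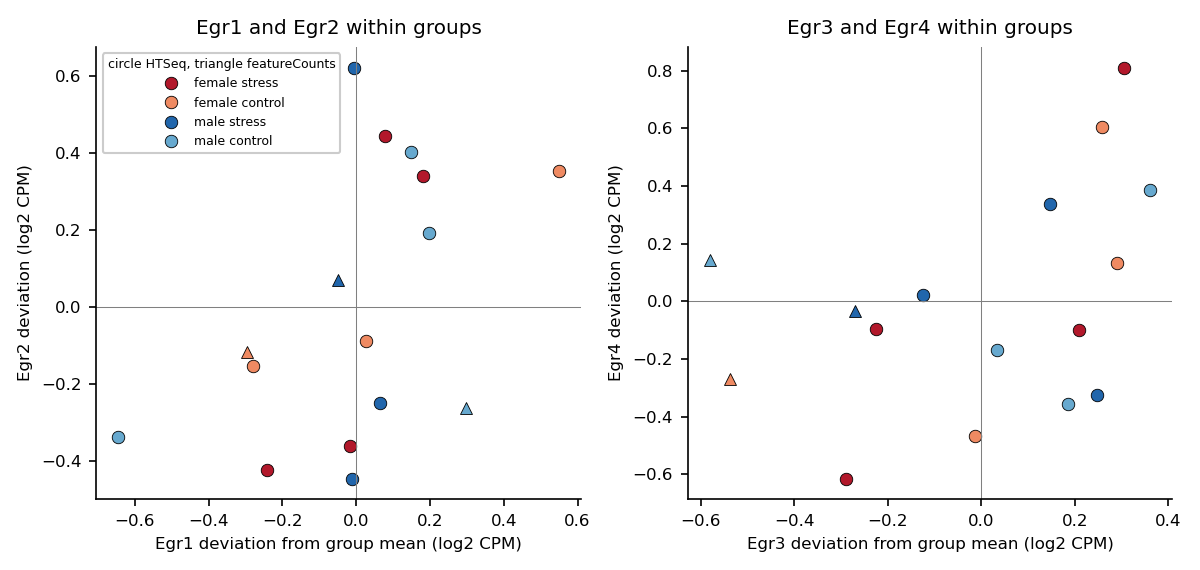
Deviation of each library from its group mean in log2 CPM, Egr2 against Egr1 (left) and Egr4 against Egr3 (right), with 1 point per library and triangles for featureCounts. Egr1 and Egr2 have r = 0.48 over 16 libraries, Egr3 and Egr4 r = 0.41, and male control 18 and female control 7 are the extremes of Egr1.

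With group means kept in, the members were ranked among all genes, as a description across 16 libraries that share depth and counting tool. Of 14240 other genes, Egr2 ranked 66 by its Pearson r with Egr1 (0.63), Egr4 ranked 599 (0.46) and Egr3 ranked 4181 (0.15). By r with Egr2, Egr1 ranked 108, Egr4 ranked 5161 and Egr3 ranked 10631, with an r of -0.20 for Egr3. By r with Egr4, Egr1 ranked 397, Egr3 ranked 697 and Egr2 ranked 4704. By r with Egr3, Egr4 ranked 1716, Egr1 ranked 4692 and Egr2 ranked 10020. With the mean of the 4 standardised members, Egr1, Egr2, Egr3 and Egr4 themselves had an r of 0.84, 0.58, 0.51 and 0.74, so it stands poorly for Egr2 and Egr3. Each member is part of that mean, so its r with the mean is raised by construction. Outside the family, the genes most like that mean were ENSRNOG00000007646 (chromosome 6, 106039991 to 106163302, r = 0.84) and ENSRNOG00000031855 (chromosome 4, 5644260 to 5672708, r = 0.81). The least like were ENSRNOG00000051837 (chromosome 14, 46136786 to 46153212, r = -0.85) and ENSRNOG00000025551 (chromosome 7, 74783019 to 74901997, r = -0.80). They were picked as the extremes over all tested genes outside the family. None of these genes outside the family was called for stress on average, with edgeR adjusted p-values of 0.638 to 0.797.

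The balance within the family was described as a ratio and a share. Egr1 relative to Egr3, both per kb, averaged 2.61 ± 0.461 for stressed females against 2.15 ± 0.455 for control females, and 1.95 ± 0.272 for stressed males against 1.57 ± 0.763 for control males (SD, n = 4). The groups overlapped in both sexes, and male control 20, counted with featureCounts, had the highest ratio of the males, 2.67. The share of Egr1 in the summed CPM per kb of the 4 genes ran from 64.5% to 72.6% in stressed females, 61.2% to 69.0% in control females, 61.1% to 66.4% in stressed males and 46.1% to 70.7% in control males.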

How the data were processed

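The authors deposited whole-number counts for each Ensembl gene, in 1 file per library. Per the labels' protocols, NuGen Ovation RNA-Seq System v2 libraries from total RNA were read as 75 bp pairs. The submitters' processing notes name STAR 2.5.2a, HTSeq, bedtools, limma and DESeq, and the build Rnor_6.0. The deposited counts of 13 files have the layout of HTSeq; per the file headers, the other 3 came from featureCounts 1.6.1 with Ensembl release 92, without an option for pairs or strand. HTSeq lines that name no gene, 44.8% to 64.7% of entries, were left out. Library numbers follow the titles, and no number recurs across groups, so they pair nothing. For stressed females the number carried by the file is not that of the title, so the numbering inside that group is uncertain.

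Counts were fitted with edgeR 4.0.16 in R 4.3.3 (TMM, filterByExpr, robust quasi-likelihood, 4 group means, all 16 libraries) and Benjamini-Hochberg adjustment over 14241 genes. SE is the absolute log2 fold change over the root of F, and 95% intervals use the fit's degrees of freedom. Log2 CPM for correlations had a prior count of 2, with 1e+05 permutations. Alternatives were DESeq2 1.42.0, limma 3.58.1 voom, no filter, nuclear genes only, tool as covariate, each sex alone and libraries left out. Members, lists and tests were chosen with earlier results of these data known, and motifs after the sequences were seen. CArG boxes were searched by that name's usual pattern, the other motifs as spelled, on both strands. Named genes are the 4 members and the 2 genes each with the highest and lowest r with their mean. Symbol lists could not be applied, since the name table used here pairs 0 of its 47357 entries with an Ensembl identifier. Promoters are RefSeq's on GRCr8, matched for 3 of 4 members; Egr3 was not matched.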

Additional observations from a re-analysis of the deposited data

Results flagged for a closer look

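For Egr2, female control 7 stood apart from its group: it had 1.74 CPM, while the remaining control females had 1.21 to 1.27 CPM. Its Egr1 and Egr4 were also the highest of that group, and 40.8% of its reads were not aligned. The featureCounts library male control 20 stood apart by its total, 67.01 M, while the HTSeq male controls had totals of 30.0 to 34.9 M. The other featureCounts libraries, female control 10 and male stress 11, also had the highest totals of their groups, 63.1 M and 73.8 M. Female stress 1 stood apart by its reads that HTSeq assigned to no feature, 31.2%, while 14.997% to 17.3% was found for the remaining stressed females. The Egr2 level of female stress 1, 2.39 CPM, was the highest of all 16 libraries. Such a library was found in 3 of 26 groups screened, and chance gives about 1 in 20. Of the 26 groups, 16 were for an Egr gene, and only female control 7 for Egr2 was found among them. For male control 20 the total was set against HTSeq libraries, so it cannot be told apart from the counting tool.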

How the results depend on the processing

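Egr1 and Egr2 kept a positive average stress effect in the 8 alternative settings and with each library left out: 0.32 to 0.47 and 0.24 to 0.44 for Egr1, 0.54 to 0.73 and 0.61 to 0.80 for Egr2. Without the filter on low counts 1 Egr gene was called for stress on average, Egr1 (0.32, adjusted p = 0.0373), and 1 for sex, Egr3 (-0.44, adjusted p = 0.00120); with the tool as covariate 1 was called for sex, Egr3 (-0.52). The smallest adjusted p of Egr2 on average was 0.0814, by DESeq2. The Egr3 stress effect, near 0, changed sign: to -0.000904 in females, -0.0065 in males and -0.0037 on average by DESeq2, to -0.0095 in males and -0.0028 on average without the filter, and without the featureCounts libraries to -0.15, -0.077 and -0.11, with -0.075 for females minus males. With the tool as covariate it was -0.12 in females, -0.048 on average and -0.15 for females minus males. Without female control 7 and male stress 14, a setting chosen after seeing the data, Egr4 in females was 0.0407, Egr1 0.0806 for the difference of effects, -0.11 for sex in controls and -0.0726 for sex on average, and Egr4 -0.0358 for sex in controls. Without the featureCounts libraries as well, Egr3 was -0.11 in females, -0.046 on average and -0.14 for the difference, and Egr1 -0.0080 for sex on average. With HTSeq alone r of Egr2 and Egr3 was -0.094. With each library left out, signs changed for Egr3 with stress (females -0.15 to 0.11, males -0.16 to 0.13, average -0.078 to 0.066, difference -0.15 to 0.17), Egr4 with stress (females -0.57 to 0.0407, average -0.077 to 0.23), Egr1 for the difference (-0.23 to 0.0824), Egr1 for sex (stress -0.092 to 0.043, controls -0.11 to 0.21, average -0.0719 to 0.089) and Egr4 for sex in controls (-0.0362 to 0.34). The causes were not tested. Over all genes, edgeR called 9, 17 and 48 for stress in females, males and on average, DESeq2 27, 31 and 103, and edgeR without the filter 105, 88 and 207. With 1 library left out edgeR called 6 to 13 in females, 7 (without male stress 11) to 21 in males, and 28 (without female stress 3 or male control 20) to 56 on average. Leaving out any of the stressed males 12 and 13 and the control males 16, 17 and 18 gave 9 to 11 in males, and the average count was 29 to 31 without female control 7 or male stress 12 or 14. The difference of effects was called for 0 genes by edgeR and voom, 1 by DESeq2 and 36 without the filter. For sex, edgeR called 13 genes in stressed rats, 16 in controls and 20 on average, against 105, 54 and 146 without the filter. In males voom called 11 and a fit of males alone 27; without the featureCounts libraries the counts were 14, 5 and 29, and without female control 7 and male stress 14 they were 11 in males and 27 on average. Depth limits Egr2 and Egr4 most. Without length, Egr2 was above Egr4 in 12 libraries.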
